A study of Mus musculus with 6 samples.

Results

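The genes described here encode the enzymes that activate, oxidise, build, elongate and desaturate fatty acids. They were the entries of the table under the 4 KEGG pathways of fatty acid biosynthesis, elongation and degradation and of unsaturated fatty acid biosynthesis. Entries that also stood under the lysosome, glycerophospholipid or ether lipid pathway were left out, and so was Acsl4. Of 100 entries 97 remained, and the 74 with at least 10 counts over the 6 libraries were kept, out of 57180 genes in all. The rule used no difference between the groups. Of the 74 genes, 65 passed the filter on low counts and were tested, 9 had too few counts for a test, and the other 23 entries stayed under 10 counts.

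RNA was measured in cells labelled natural killer (NK) cells, innate lymphocytes that kill activated stellate cells in the liver, sorted as CD3- NK1.1+ cells and divided by the fatty acid transporter CD36. Both groups came from the livers of male C57BL/6J mice, 6 to 8 weeks old, which received CCl4 by intraperitoneal injection (2.5 ml/kg of a 20% solution in olive oil, 2 injections per week for 4 weeks) and whose livers were taken 48 h after the last injection. There were 3 CD36+ NK and 3 CD36- NK libraries, named by the titles of the samples. CCl4 injures hepatocytes and causes fibrosis, so every library is from fibrotic liver and none from healthy liver. How many animals gave each sample, and whether the samples of both groups came from the same animals, is not given in the sources used here, so the p-values measure the spread between these libraries, which may be partly technical.

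Fatty acids are joined to coenzyme A by acyl-CoA synthetases before they are used. Long chains enter mitochondria through the carnitine shuttle and are shortened by beta-oxidation, which supplies electrons to the respiratory chain, while peroxisomes shorten very long chains. In the cytosol, acetyl-CoA carboxylase and fatty acid synthase make palmitate, which enzymes of the endoplasmic reticulum elongate and desaturate for membranes and stored fat.

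The libraries held 10292480 to 13787189 counts. Levels are given as TMM-scaled CPM, and as the same value per kilobase of length (RPKM) where genes are compared with each other. The length of a gene is the one implied by its deposited FPKM and count. It can exceed the stretch that the gene spans, as for H2-Ke6, with 5233 bases at 34245007 to 34247034 on chromosome 17. Comparisons of RPKM between genes, and the shares, sums and ratios drawn from them, are therefore uncertain. The log2 fold change (log2FC) is that of CD36+ NK over CD36- NK by the fit, with its standard error (SE). Cd36 was at 109.7, 263 and 238 CPM in the 3 CD36+ NK libraries against 14.3, 31.7 and 17.1 CPM in the 3 CD36- NK libraries, with log2FC 3.27 (SE 0.43, edgeR adjusted p = 0.00615). The library names carry the opposite sign of CD36 to the titles, and Cd36 was high in the libraries that the titles call CD36+. The cell type label was checked against marker genes. The 10 NK lineage genes, Ncr1 and Klrb1c (which encodes NK1.1) among them, summed from 913 to 1102 CPM in CD36+ NK against from 4885 to 6235 CPM in CD36- NK, and 10 of 10 were lower in CD36+ NK. The 6 B cell genes, Ms4a1 and Ighm among them, summed from 10728 to 12558.5 CPM in CD36+ NK against from 6497 to 8652 CPM in CD36- NK, more than the NK genes in every library, and 4 of 6 were higher in CD36+ NK. Most of this sum was Ighm, at 8651, 6508 and 8108 CPM in CD36+ NK against 5722, 5080 and 3980 CPM in CD36- NK. The 10 macrophage and Kupffer cell genes summed from 2251 to 5584 CPM in CD36+ NK against from 364 to 1366 CPM in CD36- NK, with 3 of 8 tested genes higher in edgeR (8 at an unadjusted p below 0.05 and 7 in DESeq2, at a median log2FC of 2.90). The Kupffer cell gene Clec4f had 17, 624 and 0 counts in CD36+ NK and 0 in each CD36- NK library. Erythroid genes summed from 345 to 779 CPM in CD36+ NK against from 74.7 to 163 CPM in CD36- NK (5 of 7 higher), and hepatocyte genes from 282 to 793 CPM in CD36+ NK against from 64.2 to 189.7 CPM in CD36- NK, nearly all of it Trf, with Cps1 at 0 in every library. Of the 6 T cell genes 2 were higher, at a sum of 259.5 CPM in CD36+ NK replicate 1 and 25.2 to 44.2 CPM in the other 5 libraries. Monocyte genes summed from 1329.5 to 1813 CPM in CD36+ NK against from 1485 to 2105 CPM in CD36- NK, with 2 of 8 higher and 2 of 8 lower. Sinusoidal endothelial genes summed from 212 to 306 CPM in CD36+ NK against from 154 to 169 CPM in CD36- NK (1 of 3 tested higher, Pecam1), and stellate cell genes from 6.77 to 8.46 CPM in CD36+ NK against from 2.44 to 5.61 CPM in CD36- NK (1 of 2 tested higher, Pdgfrb), with Lrat at 0 in every library. The markers thus went against the NK label in CD36+ NK, where B cell, macrophage and monocyte genes each summed above the NK genes in every library. In CD36- NK they went against it in part, since among these lists only the B cell genes summed above the NK genes. Without Ighm the B cell genes summed below the NK genes there. The group names are kept as those of the sorted samples. The lists moved between the same libraries as the enzymes below, and their part in those differences was not tested. In RNA from sorted bulk cells, fewer cells of a type and less RNA per cell cannot be told apart.

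Which fatty acid enzymes differed between CD36+ NK and CD36- NK was asked first. Of the 65 tested genes, 9 passed an adjusted p of 0.05, 5 higher and 4 lower in CD36+ NK. Over all 14761 tested genes, 10.5% passed in either direction (5.07% higher and 5.44% lower), and the enzymes stood at 13.8%. The higher genes were Acot1, Hsd17b12, Aldh2, Scp2 and Scd1, and the lower genes Elovl7, Elovl6, Acot7 and Fasn. With a fold change above 2 as well, the study's definition of a differentially expressed gene (DEG), 4 remained, Acot1 higher and Elovl7, Elovl6 and Acot7 lower. DEGs were 5.96% of all tested genes (2.98% higher and 2.98% lower) and 6.15% of these enzymes, a share near the background. Left-out libraries changed these counts: 2 genes passed without CD36+ NK replicate 2, and 3 genes without CD36+ NK replicate 3 or without replicate 1 or 3 of CD36- NK, while 8 passed without CD36+ NK replicate 1, and 9 when replicate 2 of CD36- NK was left out. The share of all genes moved alike, with 3.52%, 4.07%, 4.1% and 4.36% called in the first 4 of these fits, where 3.03% to 4.55% of the enzymes passed, and 11.5% in each of the last 2, beside 11.9% and 13.4% of the enzymes. Elovl6 and Elovl7 passed in all 6 of these fits.

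Most of the enzymes stayed within a narrow band. The log2FC was below 0.5 in size for 54 of 65 genes, against 74.7% of all tested genes, and its median was 0.11 against 0.01 over all genes. In 26 of 65 genes the 3 libraries of one group all lay above the 3 of the other, 19 with CD36+ NK above and 7 with CD36+ NK below. The same held for 32.8% of all tested genes, 17% with CD36+ NK above and 15.7% with CD36+ NK below. Summed over all 74 genes, RPKM was 658, 685 and 695 in CD36+ NK against 607, 586 and 582 in CD36- NK. The CD36+ NK sums were the higher ones, and 2 genes held much of them: Scd1 made up 14.2 ± 0.595% (SD, n = 3) of the sum in CD36+ NK against 11.9 ± 0.586% in CD36- NK, and Aldh2 10.02 ± 0.936% and 6.9 ± 1.27%.

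**Figure D1:**
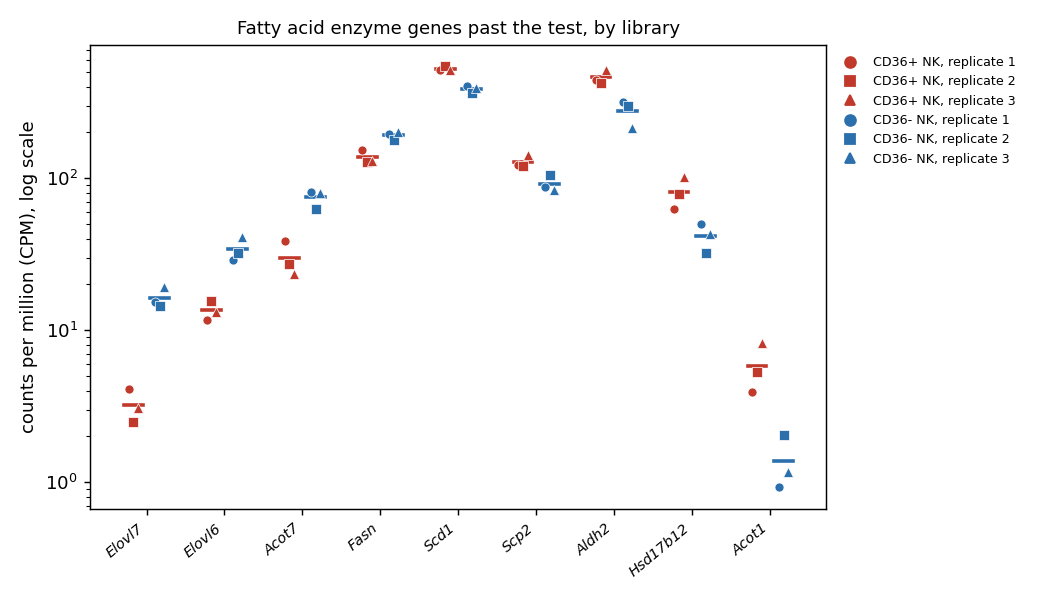
Level of the 9 enzyme genes past the test in each library, in TMM-scaled CPM on a log axis, with CD36+ NK in red, CD36- NK in blue, symbols for the replicates and a bar at the mean of each group. The libraries of both groups stand apart for each gene, by the widest gap for Elovl7, at 2.5 to 4.09 CPM in CD36+ NK against 14.4 to 19.3 in CD36- NK.

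**Figure D2:**
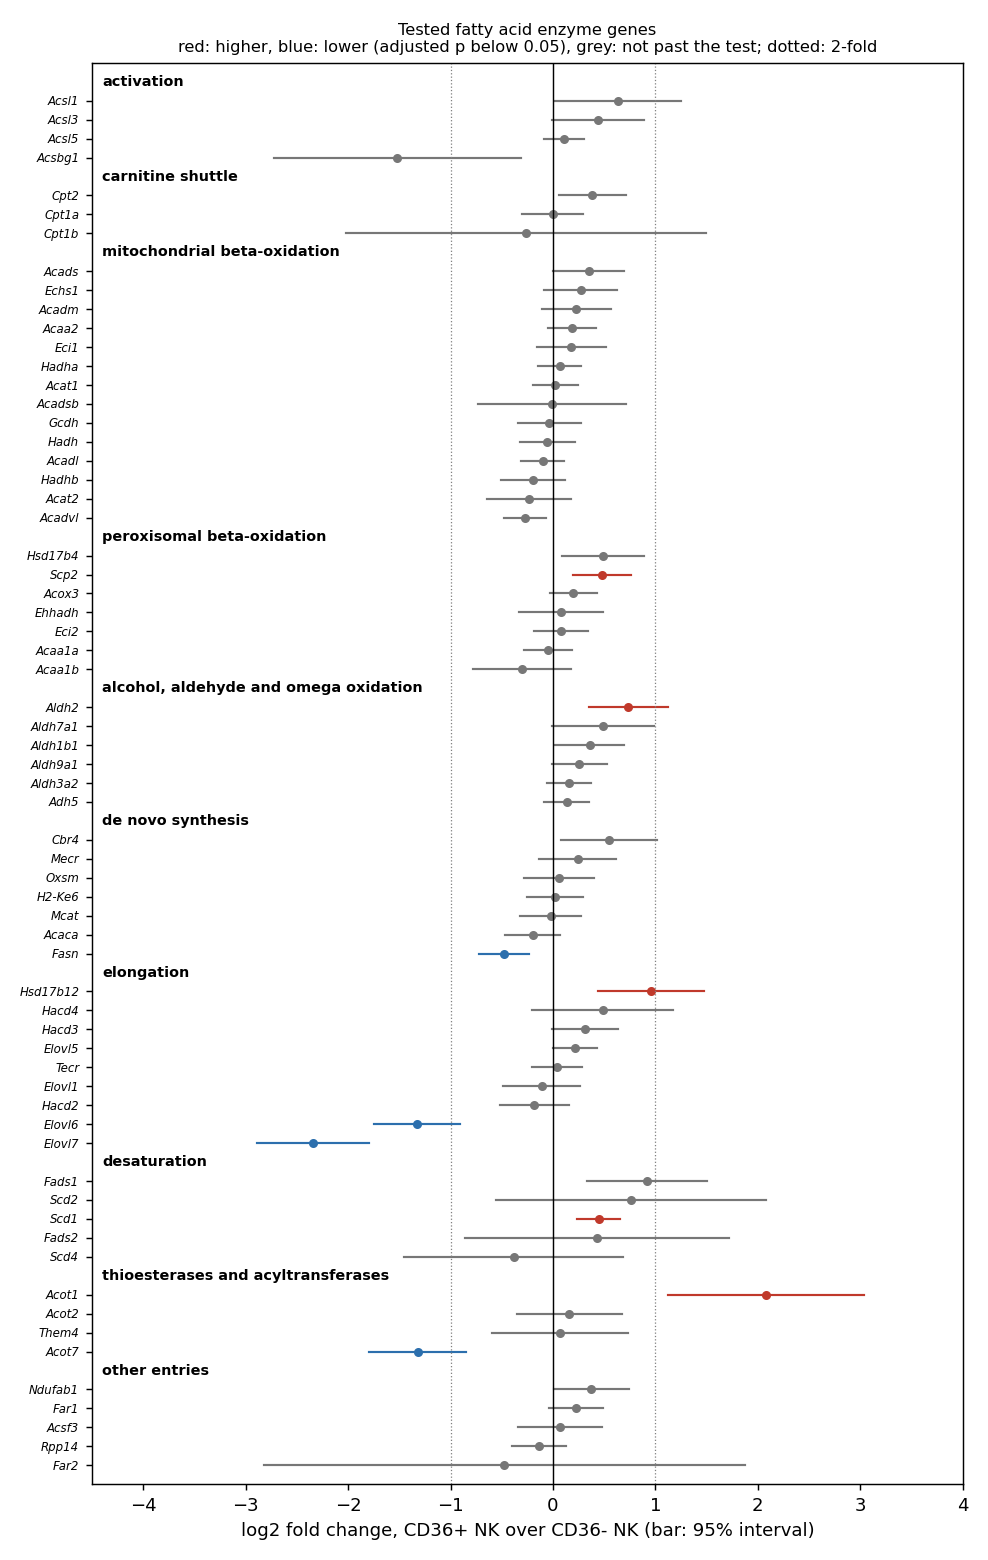
Log2 fold change of CD36+ NK over CD36- NK for 64 of the 65 tested genes by role, with 95% intervals from edgeR, red for higher and blue for lower at an adjusted p below 0.05, grey for the rest, and dotted lines at a fold change of 2. The 14 mitochondrial beta-oxidation genes lie between -0.27 and 0.35, while the elongation genes run from -2.34 to 0.96.

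Elongation held the gene with the lowest log2FC of all 65, Elovl7. Of 11 elongation genes 9 were tested, of which 2 were lower, 1 was higher and 6 did not pass. Elovl7, an elongase of very long chains (chromosome 13, 108350938 to 108422217, in a build that the table does not name), was at 4.09, 2.5 and 3.08 CPM in the 3 CD36+ NK libraries against 15.2, 14.4 and 19.3 CPM in the 3 CD36- NK libraries. All CD36- NK libraries lay above all CD36+ NK libraries, 5.07 times as high by the fit, with log2FC -2.34 (SE 0.23, edgeR adjusted p = 0.00231). Elovl6 (chromosome 3, 129326004 to 129432144) encodes the elongase that turns palmitate into stearate. It was at 11.7, 15.7 and 13.2 CPM in CD36+ NK against 29.1, 32 and 41.3 CPM in CD36- NK, again without overlap, and CD36- NK was 2.51 times as high, with log2FC -1.33 (SE 0.18, edgeR adjusted p = 0.0066). Both genes passed in each of the 6 fits that left out a library.

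The elongase of highest level was Elovl5, which acts on polyunsaturated chains. Its RPKM was 29.1 ± 1.92 (SD, n = 3) in CD36+ NK against 25.1 ± 1.51 in CD36- NK, with log2FC 0.22 (SE 0.09, edgeR adjusted p = 0.187). Elovl1, an elongase of saturated very long chains, was at 8.65 ± 1.35 RPKM in CD36+ NK against 9.34 ± 1.39 in CD36- NK, and its libraries overlapped (edgeR adjusted p = 0.726). Of the summed RPKM of the 5 elongases, Elovl5 held 73.6 ± 3.53% in CD36+ NK against 62.2 ± 4.68% in CD36- NK. Elovl6 held 3.09 ± 0.351% and 7.63 ± 1.25%, and Elovl7 1.4 ± 0.406% and 6.9 ± 0.961%. Per length, Elovl5 was 25.7, 20.4 and 26 times as high as Elovl6 in CD36+ NK against 9.36, 9.24 and 6.38 times in CD36- NK, so the elongase transcripts of CD36+ NK were weighted further towards Elovl5 in every library.

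After the elongase, each round of elongation needs a ketoreductase, a dehydratase and a final reductase. Hsd17b12, the ketoreductase, was at 62.5, 78.6 and 102 CPM in CD36+ NK against 49.7, 32.2 and 43 CPM in CD36- NK. The groups did not overlap and CD36+ NK was 1.94 times as high, with log2FC 0.96 (SE 0.22, edgeR adjusted p = 0.0373). That call was lost in 5 of the 6 fits without a library: without CD36+ NK replicate 2 (adjusted p = 0.101) or 3 (0.109) and without CD36- NK replicate 1 (0.063), 2 (0.0583) or 3 (0.104). It was also lost with a block by library name (CD36+ NK replicates 1, 2 and 3 with CD36- NK replicates 1, 3 and 2, adjusted p = 0.0765) and with the form of those names, lower or upper case, as a block (0.0554). Of these pairs, only CD36+ NK replicate 2 and CD36- NK replicate 3 share a number in the library names, so the names do not settle the pairs. The dehydratase genes Hacd2, Hacd3 and Hacd4 had log2FC values of -0.18, 0.31 and 0.49 and did not pass. Tecr, the final reductase, was at 14.4 ± 0.664 RPKM in CD36+ NK against 14.1 ± 1.6 in CD36- NK, with a 95% interval of its log2FC from -0.21 to 0.29.

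**Figure D3:**
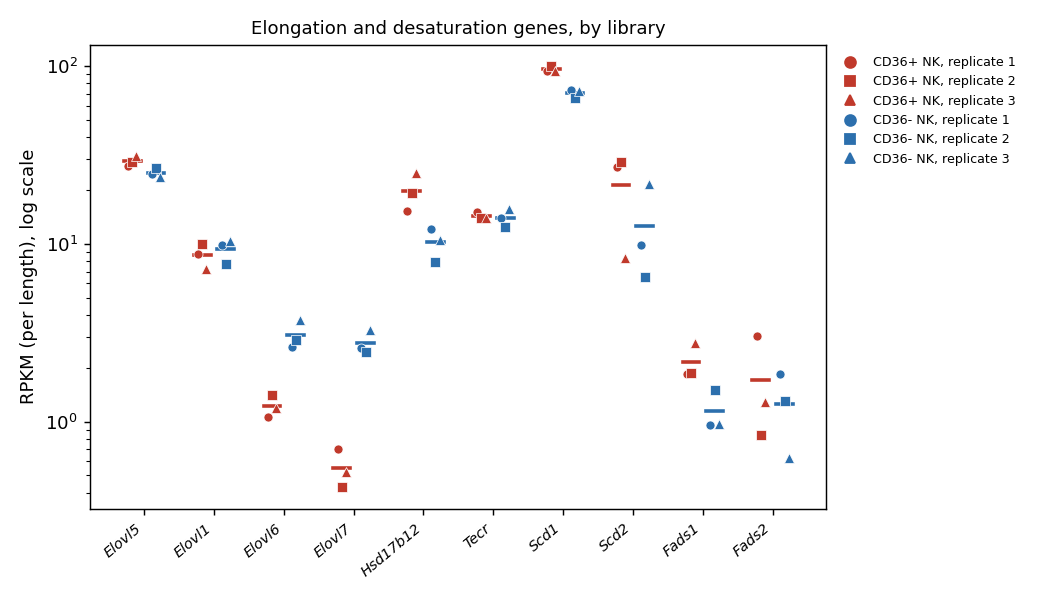
Level per length (RPKM, log axis) of 6 elongation genes and 4 desaturation genes in each library, with CD36+ NK in red, CD36- NK in blue and a bar at the mean of each group. Elovl6 and Elovl7 are lower in the 3 CD36+ NK libraries, Hsd17b12, Scd1 and Fads1 are higher there, and the groups overlap for Elovl1, Tecr, Scd2 and Fads2.

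Desaturases put double bonds into the chain. Scd1, the stearoyl-CoA desaturase that makes oleate, had the highest level per length of all 74 genes, with a mean RPKM of 96.2 ± 3.77 in CD36+ NK against 70.6 ± 3.94 in CD36- NK. Its libraries were at 515, 550.1 and 513 CPM in CD36+ NK against 402, 362 and 395 CPM in CD36- NK, with no overlap and log2FC 0.45 (SE 0.09, edgeR adjusted p = 0.0248). The difference, 1.36 times by the fit, passed in 1 of the 6 fits without a library, and the adjusted p was 0.101 and 0.0812 without CD36+ NK replicate 2 or 3 and 0.0619, 0.0562 and 0.0581 without CD36- NK replicate 1, 2 or 3. Scd2, another stearoyl-CoA desaturase of similar sequence whose gene lies near Scd1 on chromosome 19, varied within both groups, at 194, 209.5 and 60.1 CPM in CD36+ NK against 71.3, 46.9 and 156 CPM in CD36- NK. CD36+ NK replicate 3 was as low as the lower CD36- NK libraries, CD36- NK replicate 3 was close to the higher CD36+ NK ones, and the adjusted p was 0.453 (edgeR). Scd1 was 3.5, 3.46 and 11.2 times Scd2 in RPKM in CD36+ NK against 7.43, 10.2 and 3.34 times in CD36- NK, a ratio that ranged within the groups as widely as between them. The counting could have split fragments among Scd1, Scd2 and Scd4, so their values are uncertain.

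The front-end desaturases make polyunsaturated fatty acids such as arachidonate. Fads1, the delta-5 desaturase, was at 15.9, 16 and 23.8 CPM in CD36+ NK against 8.23, 12.9 and 8.3 CPM in CD36- NK, a log2FC of 0.92 (standard error 0.25) that missed the threshold in edgeR (adjusted p = 0.0599) and passed it in DESeq2. It also passed with the block by library name (edgeR adjusted p = 0.0121), whose pairs the names do not settle. Without CD36- NK replicate 2 it passed as well (edgeR adjusted p = 0.0267). Fads2, the delta-6 desaturase, was at 10.9, 3.02 and 4.66 CPM in CD36+ NK against 6.61, 4.69 and 2.25 CPM in CD36- NK, and its interval, -0.86 to 1.72 on the log2 scale, was too wide to bound the difference within 2-fold. Scd4 was near 1.12 CPM in CD36+ NK against 1.45 in CD36- NK.

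De novo synthesis had 7 tested genes, of which Fasn was lower and 6 did not pass. Fasn, fatty acid synthase, joins malonyl-CoA units into palmitate. It was at 153, 128 and 131 CPM in the 3 CD36+ NK libraries against 195, 178 and 201 CPM in the 3 CD36- NK libraries. Every CD36- NK library lay above every CD36+ NK library, and the fit gave log2FC -0.48 (SE 0.10, edgeR adjusted p = 0.033), so that CD36- NK was 1.39 times as high. Without CD36+ NK replicate 2 or 3 the adjusted p was 0.122 and 0.123, without CD36- NK replicate 1 or 3 it was 0.104 and 0.104, and without a filter on low counts 0.0541. Acaca, the cytosolic acetyl-CoA carboxylase that makes malonyl-CoA, was at 28.4, 28.4 and 25.4 CPM in CD36+ NK against 32.5, 33.3 and 28.4 CPM in CD36- NK, a log2FC of -0.20 with an interval from -0.47 to 0.07. Acacb, the carboxylase at the outer mitochondrial membrane whose malonyl-CoA inhibits Cpt1, had 4 to 12 counts in a library and was not tested.

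Mitochondria hold a synthesis pathway of their own, which makes octanoate, the precursor of lipoic acid. Among its genes, Mcat, Oxsm, Cbr4, H2-Ke6 (also called Hsd17b8) and Mecr had log2FC values of -0.02, 0.06, 0.55, 0.02 and 0.24, and 0 of these 5 passed in edgeR (1 at an unadjusted p below 0.05, 0 in DESeq2). H2-Ke6 had the highest level of the 5, at 6.96 ± 0.56 RPKM in CD36+ NK against 6.88 ± 0.629 in CD36- NK. Cbr4, a subunit of the ketoacyl reductase, was at 7.12, 10.8 and 9.56 CPM in CD36+ NK against 6.3, 6.37 and 6.15 CPM in CD36- NK, higher in each CD36+ NK library (adjusted p = 0.129). Ndufab1, the acyl carrier protein of the pathway and also a subunit of respiratory complex I, was at 15, 13.6 and 13.7 CPM in CD36+ NK against 10.7, 12.6 and 9.38 CPM in CD36- NK, again higher in each CD36+ NK library and not past the test (log2FC 0.38, edgeR adjusted p = 0.175). Acsf3, which makes malonyl-CoA in mitochondria, had a log2FC of 0.07.

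The promoters of the 4 genes that were lower in CD36+ NK are shown here to compare their letters before and around the gene start, a feature that the choice of genes did not use. Each window is from RefSeq on GRCm38.p6 and runs 5′ to 3′ on the strand of the gene: Fasn chr11:120824498-120824797 (- strand), Elovl6 chr3:129532136-129532435 (+ strand), Elovl7 chr13:108214154-108214453 (+ strand) and Acot7 chr4:152185358-152185657 (+ strand). Letters in capitals match the CCAAT box (CCAAT) or the GC box (GGGCGG) on either strand.
Fasn: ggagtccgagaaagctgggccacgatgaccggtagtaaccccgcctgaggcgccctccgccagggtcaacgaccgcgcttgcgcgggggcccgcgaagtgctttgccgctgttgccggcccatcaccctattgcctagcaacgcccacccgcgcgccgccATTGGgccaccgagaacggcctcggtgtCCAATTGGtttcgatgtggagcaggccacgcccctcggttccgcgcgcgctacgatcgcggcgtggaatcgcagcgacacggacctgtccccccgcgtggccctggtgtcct
Elovl6: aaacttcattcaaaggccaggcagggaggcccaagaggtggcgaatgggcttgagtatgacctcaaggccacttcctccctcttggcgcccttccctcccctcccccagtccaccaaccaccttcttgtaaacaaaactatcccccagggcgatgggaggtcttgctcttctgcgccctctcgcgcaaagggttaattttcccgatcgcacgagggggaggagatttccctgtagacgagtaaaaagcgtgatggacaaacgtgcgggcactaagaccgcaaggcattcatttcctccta
Elovl7: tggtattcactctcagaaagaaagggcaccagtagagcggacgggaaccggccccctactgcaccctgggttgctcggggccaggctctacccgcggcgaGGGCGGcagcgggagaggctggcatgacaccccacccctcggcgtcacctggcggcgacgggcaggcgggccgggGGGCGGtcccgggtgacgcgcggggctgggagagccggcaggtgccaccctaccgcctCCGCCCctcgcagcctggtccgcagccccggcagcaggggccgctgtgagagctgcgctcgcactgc
Acot7: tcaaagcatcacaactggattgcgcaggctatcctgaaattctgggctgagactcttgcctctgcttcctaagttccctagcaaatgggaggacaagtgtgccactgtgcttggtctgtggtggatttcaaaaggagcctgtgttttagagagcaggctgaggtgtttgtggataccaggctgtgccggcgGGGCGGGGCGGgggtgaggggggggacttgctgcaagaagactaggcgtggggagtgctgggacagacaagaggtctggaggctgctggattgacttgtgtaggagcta

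Fasn held 3 CCAAT matches, 2 of them overlapping, and no GC box. Elovl7 held 3 GC boxes, Acot7 held 2 that overlap by a base, and Elovl6 held neither motif. None of the 4 windows held the sterol regulatory element (TCACCCCAC) or the E-box CACGTG. Of the 74 genes 62 had a window. A GC box stood in 69.4% of them and in 38.2% of all 27025 genes with a window, and a CCAAT box in 50% and 41.1%. The E-box stood in 9.68% and 8.09%, and the sterol regulatory element in 1.61% (Acsl1 alone) and 0.614%. The PPAR element, a direct repeat searched as its consensus letters, was in 0 of the 62 and in 0.0481% of all. These counts describe letters in the windows, and no motif searched was in all 4 windows of the lower genes.

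Thioesterases cut acyl-CoA back to a free fatty acid and coenzyme A. Of 4 tested genes, 1 was higher and 1 lower. Acot7 (chromosome 4, 152262591 to 152356312), a cytosolic thioesterase of long chains, was at 38.7, 27.4 and 23.6 CPM in the 3 CD36+ NK libraries against 81, 62.9 and 80.3 CPM in the 3 CD36- NK libraries. The groups did not overlap and CD36- NK was 2.5 times as high, with log2FC -1.32 (SE 0.20, edgeR adjusted p = 0.00977). Without CD36+ NK replicate 2 the adjusted p was 0.0508, and in the other 5 fits without a library it passed. Acot1 (chromosome 12, 84056264 to 84065145), also a cytosolic thioesterase, was at 3.92, 5.3 and 8.23 CPM in CD36+ NK against 0.922, 2.03 and 1.17 CPM in CD36- NK. CD36+ NK was 4.22 times as high, with log2FC 2.08 (SE 0.41, edgeR adjusted p = 0.0231), with an interval from 1.12 to 3.03. The adjusted p was 0.0698 and 0.0745 without CD36+ NK replicate 2 or 3 and 0.0833 and 0.087 without CD36- NK replicate 1 or 3.

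Acot1 lies between Acot2 and Acot4 on chromosome 12, within 15616 and 20007 bases of them, and these genes are similar in sequence, so the counting could have split their fragments and their values are uncertain. Acot2, the mitochondrial member, was at 13.1, 16 and 20.04 CPM in CD36+ NK against 14.7, 11.6 and 17.8 CPM in CD36- NK with overlap and a log2FC of 0.16 (edgeR adjusted p = 0.704). Acot4, a peroxisomal member, had 8, 14 and 13 counts in CD36+ NK against 0, 5 and 1 in CD36- NK and was too low for the test. Without CD36- NK replicate 2 it entered the test only through its counts in CD36+ NK. Its call there (edgeR adjusted p = 0.0338) is therefore no support for a difference. Them4, a mitochondrial thioesterase, was at 2.99 CPM in CD36+ NK against 2.87 CPM in CD36- NK.

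On the way into oxidation, the activation and carnitine steps gave no call. Of 4 tested acyl-CoA synthetases 0 passed in edgeR (2 at an unadjusted p below 0.05, and 1 in DESeq2, Acsbg1). Acsl5, which serves the mitochondria and endoplasmic reticulum, held 81.2 ± 2.35% of the summed RPKM of the 5 synthetases in CD36+ NK against 80.3 ± 1.07% in CD36- NK. It was at 171, 181 and 182 CPM in CD36+ NK against 170.4, 169 and 157 CPM in CD36- NK, and the interval of its log2FC ran from -0.09 to 0.30. Acsl1 was at 45.7, 42 and 52.8 CPM in CD36+ NK against 34.9, 37.3 and 18 CPM in CD36- NK, a log2FC of 0.64 (adjusted p = 0.176), and Acsl3 at a log2FC of 0.44. Acsbg1, a synthetase of very long chains, was at 8.37, 2.28 and 2.16 CPM in CD36+ NK against 10.5, 11.9 and 14.1 CPM in CD36- NK. CD36+ NK replicate 1 was close to the CD36- NK libraries and the other CD36+ NK libraries were far below them, and the log2FC of -1.52 (standard error 0.51) did not pass in edgeR (adjusted p = 0.109). Without CD36+ NK replicate 1 it was -2.46 and passed (edgeR adjusted p = 0.00326).

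Carnitine palmitoyltransferase 1 is the gate through which long chains reach the mitochondrion. Of 3 tested carnitine shuttle genes 0 passed in edgeR (1 at an unadjusted p below 0.05 and 0 in DESeq2). Cpt1a, the main form in liver and lymphocytes, was at 106, 139 and 134 CPM in the 3 CD36+ NK libraries against 118, 136 and 126 CPM in the 3 CD36- NK libraries. The CD36- NK libraries lay inside the range of the CD36+ NK libraries, the log2FC was -0.00 and its interval ran from -0.30 to 0.29, which leaves out a 2-fold difference in either direction. Cpt1a held 95 ± 4.97% of the RPKM of the 3 forms in CD36+ NK against 94.9 ± 2.97% in CD36- NK. Cpt1b, the muscle form, had 2.65 ± 2.44 CPM (SD, n = 3) in CD36+ NK against 3.16 ± 2.23 CPM in CD36- NK and spread widely within both groups. Cpt2, the inner membrane form, was at 13, 11.5 and 11.4 CPM in CD36+ NK against 9.53, 9.11 and 8.79 CPM in CD36- NK, higher in every CD36+ NK library with a log2FC of 0.39 (edgeR adjusted p = 0.129).

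Mitochondrial beta-oxidation gave no call. All 14 genes were tested and 0 passed in edgeR (1 at an unadjusted p below 0.05, 0 in DESeq2), 7 of them with a positive and 7 with a negative log2FC and a median of 0.01. The interval of each of the 14 left out a 2-fold difference, and over the 14 the intervals ran from -0.73 to 0.71 on the log2 scale. Summed RPKM was 135, 143 and 145 in CD36+ NK against 144, 138 and 135 in CD36- NK, with overlap. Such intervals bound each difference below 2-fold and do not show that levels were equal.

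By step, the acyl-CoA dehydrogenases make the first double bond. Acadl, for long chains, had the highest level per length of the group, at 34.6 ± 2.03 RPKM in CD36+ NK against 37.1 ± 1.95 in CD36- NK, and an interval from -0.31 to 0.11. That rank rests on its length of 2039 bases, since Hadha, at a length of 10712 bases, had the higher CPM in every library. Acadvl, for very long chains, was at 56.8, 59.6 and 53.5 CPM in CD36+ NK against 71.7, 67.6 and 65.5 CPM in CD36- NK, lower in each CD36+ NK library, with a log2FC of -0.27 that did not pass (edgeR adjusted p = 0.0985). Acadm and Acads, for medium and short chains, had log2FC values of 0.23 and 0.35. The 4 point estimates were thus below 0 for the longer chains and above 0 for the shorter ones, and none of the 4 passed.

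The hydration, dehydrogenation and thiolysis steps are shared by Echs1, Hadh, Acaa2 and the trifunctional protein of Hadha and Hadhb. Acaa2, the thiolase, was at 22.3 ± 1.14 RPKM in CD36+ NK against 19.6 ± 1.55 in CD36- NK (log2FC 0.19, edgeR adjusted p = 0.304), and Echs1 and Hadh had log2FC values of 0.27 and -0.05. Hadha was at 140.1, 143 and 156 CPM in CD36+ NK against 146, 140.1 and 134 CPM in CD36- NK. Hadhb was at 14.8, 13.9 and 15.4 CPM in CD36+ NK against 16.8, 14.9 and 18.8 CPM in CD36- NK, much lower than its partner subunit in each library. Per length, Hadhb was lower by 7.78, 8.43 and 8.35 times in CD36+ NK against 7.17, 7.7 and 5.84 times in CD36- NK. The size of these ratios depends on the lengths used. The 2 genes lie head to head on chromosome 5, 85 bases apart, and whether fragments between them were assigned by strand is not given in the sources used here. Acat1, the acetoacetyl-CoA thiolase, had a log2FC of 0.02. Among these 14 genes, Acat2 acts in the cytosol and Gcdh and Acadsb mainly in amino acid breakdown. Their log2FC values were -0.24, -0.04 and -0.01.

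In peroxisomal beta-oxidation, 1 of 8 tested genes was higher and 7 did not pass. Scp2, which encodes both a peroxisomal thiolase and a sterol carrier protein, was at 123, 121 and 142 CPM in the 3 CD36+ NK libraries against 88.1, 105 and 83.7 CPM in the 3 CD36- NK libraries. All CD36+ NK libraries were above all CD36- NK ones, by 1.39 times in the fit, with log2FC 0.48 (SE 0.12, edgeR adjusted p = 0.0463). The call was lost without CD36+ NK replicate 1, 2 or 3 (adjusted p = 0.0653, 0.102 and 0.152), without CD36- NK replicate 1 or 3 (0.142 and 0.14), without a filter on low counts (0.0712) and with the form of the library names as a block (0.0516). Hsd17b4, the multifunctional enzyme that follows the oxidases, was at 64.4, 75.6 and 97.9 CPM in CD36+ NK against 51.6, 64.2 and 54 CPM in CD36- NK, with a log2FC of 0.49 (edgeR adjusted p = 0.117). With the block by library name, whose pairs the names do not settle, the edgeR adjusted p of Hsd17b4 was 0.0324. The oxidase Acox3, which takes the first step, had a log2FC of 0.20, and the thiolases Acaa1a and Acaa1b -0.05 and -0.30. The intervals of all 8 left out a 2-fold difference. Summed RPKM was 71.2, 77.2 and 85.3 in CD36+ NK against 62.1, 70.4 and 60.9 in CD36- NK, each CD36+ NK library above each CD36- NK library.

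Aldehyde dehydrogenases oxidise fatty and other aldehydes, and KEGG lists them under fatty acid degradation. Of 6 tested alcohol and aldehyde dehydrogenase genes, Aldh2 was higher and 5 did not pass, all 6 with a positive log2FC. Aldh2, the mitochondrial enzyme that clears acetaldehyde and aldehydes from lipid peroxidation, was at 443, 422 and 516 CPM in the 3 CD36+ NK libraries against 317, 298 and 214 CPM in the 3 CD36- NK libraries. The groups did not overlap, with CD36- NK replicate 3 the lowest, and CD36+ NK was 1.67 times as high, with log2FC 0.74 (SE 0.17, edgeR adjusted p = 0.0355). Left-out libraries ended the call in 5 of 6 fits, CD36+ NK replicates 1, 2 and 3 at adjusted p = 0.0543, 0.0844 and 0.119 and CD36- NK replicates 1 and 3 at 0.063 and 0.0524, and the adjusted p was 0.0514 without a filter on low counts. Aldh9a1, which also takes part in carnitine synthesis, was next in level, at 20.2 ± 0.948 RPKM in CD36+ NK against 16.8 ± 2.17 in CD36- NK (log2FC 0.26, edgeR adjusted p = 0.205). Aldh3a2, the fatty aldehyde dehydrogenase, had an interval from -0.06 to 0.37.

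Ndufab1, Acsf3, Rpp14, Far1 and Far2 were counted apart from the groups above. Far1, a fatty acyl-CoA reductase of ether lipid synthesis, was at 6.08 ± 0.446 RPKM in CD36+ NK against 5.2 ± 0.587 in CD36- NK (log2FC 0.23), and Rpp14, a subunit of ribonuclease P whose transcript also encodes a mitochondrial dehydratase, at 7.28 ± 0.448 and 7.99 ± 0.452 (log2FC -0.13). Of these 5 genes, 0 passed in edgeR (1 at an unadjusted p below 0.05, 0 in DESeq2). The 9 genes too low for the test were Acsl6, Adh1, Cyp2u1, Cpt1c, Acacb, Elovl4, Hacd1, Acsbg3 and Acot4, and Adh1, the main liver alcohol dehydrogenase, had 11, 8 and 0 counts in CD36+ NK against 0 in each CD36- NK library.

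Oxidation was then set against synthesis. The oxidation side joined the carnitine shuttle and both beta-oxidation groups (25 tested genes), and the synthesis side de novo synthesis, elongation and desaturation (21 tested genes). The synthesis side thus includes Mcat, Oxsm, Cbr4, H2-Ke6 and Mecr, of the mitochondrial pathway that makes octanoate, beside the genes that make palmitate. On the oxidation side 1 gene was higher and 0 were lower in edgeR, 4% of it (4 at an unadjusted p below 0.05 and 1 in DESeq2, in either direction). On the synthesis side 2 were higher and 3 lower, 23.8% of it (8 at an unadjusted p below 0.05 and 6 in DESeq2). Over all tested genes 10.5% passed in edgeR, 26.3% had an unadjusted p below 0.05 and 15.7% passed in DESeq2. The median log2FC was 0.06 for oxidation and 0.06 for synthesis, beside 0.01 over all tested genes, and 0.11 for both when the KEGG entries set the sides. Single libraries moved these medians. That of oxidation was 0.02 without CD36+ NK replicate 3, 0.03 without CD36- NK replicate 1 and 0.10 without CD36+ NK replicate 1. That of synthesis was 0.17 and 0.11 without CD36+ NK replicate 2 or 3, and 0.15 and 0.12 when replicate 2 or 3 of CD36- NK was left out. The synthesis genes spread further, from -2.34 to 0.96 against -0.30 to 0.49 on the oxidation side.

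Within each library, the mean log2 CPM of the oxidation genes minus that of the synthesis genes was 0.24, 0.31 and 0.30 in CD36+ NK against 0.12, 0.37 and 0.24 in CD36- NK. The CD36+ NK values fell inside the range of the CD36- NK values, with means of 0.28 ± 0.03 (SD, n = 3) and 0.24 ± 0.13 and a difference of 0.04, less than the spread between replicates. The sign of the difference turned without CD36+ NK replicate 2 (-0.01) or 3 (-0.01) and without CD36- NK replicate 1 (-0.02). The sums of RPKM gave another view, since they follow the highest genes: the synthesis sum was 248, 259 and 242 in CD36+ NK against 206, 190.3 and 215 in CD36- NK, without overlap, and the oxidation sum was 222, 239 and 248 and 222, 227 and 212, with overlap.

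**Figure D4:**
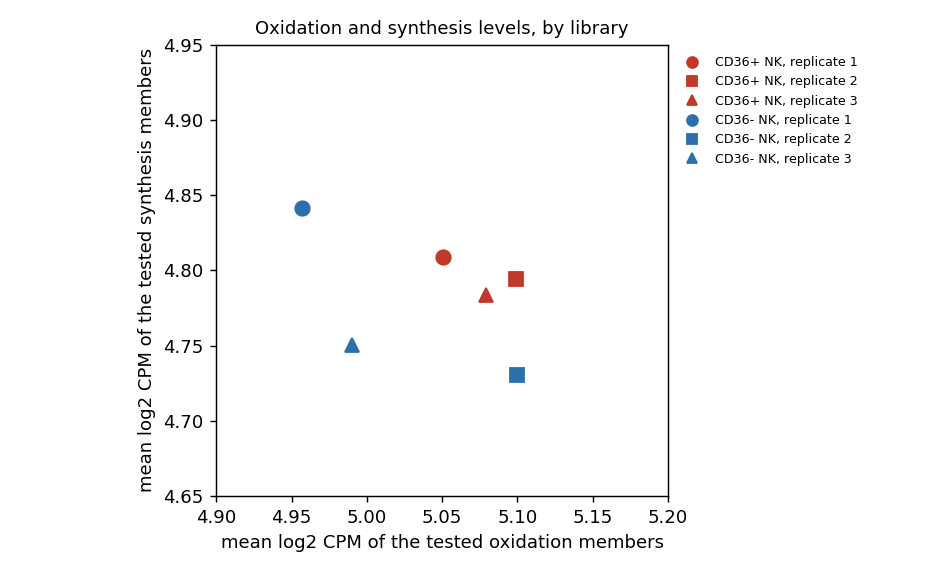
Mean log2 CPM of the 25 tested oxidation genes (horizontal axis) and of the 21 tested synthesis genes (vertical axis) in each library, with CD36+ NK in red, CD36- NK in blue and a symbol for each replicate. The 3 CD36+ NK libraries lie within 4.78 to 4.81 on the synthesis axis, inside the span of the CD36- NK libraries, 4.73 to 4.84.

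Genes that feed or control these pathways without belonging to the 4 KEGG entries were examined as a list beside the 74. Of 19 oxidation partners 17 were tested and 1 was lower in edgeR (1 at an unadjusted p below 0.05 and 1 in DESeq2). That gene was Crot, carnitine octanoyltransferase, which exports shortened chains from peroxisomes, at 36, 39.7 and 41.2 CPM in CD36+ NK against 55.6, 61.3 and 63.1 CPM in CD36- NK, with log2FC -0.62 (SE 0.10, edgeR adjusted p = 0.0117). Without CD36+ NK replicate 2 its adjusted p was 0.0546. The electron carriers Etfa, Etfb and Etfdh had log2FC values of 0.07, 0.26 and -0.07, the carnitine carrier Slc25a20 0.08 and the lipid-sensing receptor Ppard -0.20, none past the test. Ppara was listed with 1 count in all.

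Of 13 synthesis partners 11 were tested and 1 was lower in edgeR (5 at an unadjusted p below 0.05 and 4 in DESeq2, in either direction). Acss2, which makes cytosolic acetyl-CoA from acetate, was at 34.2, 27.8 and 28.8 CPM in the 3 CD36+ NK libraries against 60.4, 71.6 and 81.2 CPM in the 3 CD36- NK libraries. The groups were far apart, with log2FC -1.23 (SE 0.14, edgeR adjusted p = 0.00406), and the call held in each of the 6 fits without a library. Acly, which makes cytosolic acetyl-CoA from citrate, was at 264, 261 and 255 CPM in CD36+ NK against 315, 311 and 314 CPM in CD36- NK, lower in each CD36+ NK library but short of the threshold (log2FC -0.27, edgeR adjusted p = 0.0744). Srebf1, which encodes the transcription factor of lipid synthesis SREBP-1, overlapped between the groups, at 79.7, 78.2 and 89 CPM in CD36+ NK against 78.7, 90.5 and 72.7 CPM in CD36- NK. Nr1h3, which encodes the sterol receptor LXR-alpha, was at 29, 51.2 and 88.1 CPM in CD36+ NK against 5.38, 20.8 and 5.27 CPM in CD36- NK (edgeR adjusted p = 0.0538), a gene that macrophages express highly. Its levels stood in the same order over the 6 libraries as the summed macrophage genes, and the part of such cells in them was not tested. Mlxipl, which encodes the carbohydrate sensor ChREBP, was at 2.33 CPM in CD36+ NK against 0.344 CPM in CD36- NK (adjusted p = 0.0624).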

How the data were processed

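The 6 libraries, 3 of each group, were read on an Illumina NovaSeq instrument. The authors filtered reads with Seqtk, mapped them with HISAT2 (2.0.4) and counted fragments per gene with StringTie (v1.3.3b). They deposited these counts without normalization, beside FPKM values that equal the count over length and library total. The FPKM values were used only to derive the length of each gene for RPKM. The submitters' notes name the rat build mRatBN7.2, although the identifiers are mouse Ensembl genes, so the table's coordinates have no stated build. Titles set the groups. The library names carry the opposite sign of CD36. The lines of 2 genes were rejoined.

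Counts were analysed with edgeR 4.0.16 (limma 3.58.1, R 4.3.3): filterByExpr with a minimum count of 10 left 14761 genes, which were scaled by TMM and tested by quasi-likelihood without a block, with Benjamini-Hochberg adjustment over all of them. The threshold was 0.05. Standard errors are the log2 fold change over the square root of F. Mean log2 CPM used a prior count of 2. The biological coefficient of variation was 20.3%. Replicates differed beyond sampling noise (chi-square per degree of freedom 14.7 to 29.0). The script was tested on simulated data.

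Alternatives were DESeq2 1.42.0, other scalings and filters, blocks, left-out libraries and KEGG sides. The genes and lists were chosen with earlier results of these data known. Named genes are those past the test, the 2 highest per role and the partners past the test. Others were named after their values were seen. The values of 1 tested enzyme gene are not reported here. The exact permutation test of 3 against 3 libraries cannot go below p = 0.1 and was not used. Figures were drawn in Python 3.11.15.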

Additional observations from a re-analysis of the deposited data

How the results depend on the processing

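Counts of calls depended on which libraries entered the fit. The genes higher in CD36+ NK, 5 as reported, were 3 without a filter on low counts, 3 with the form of the library name as a block and 1 with the replicate block, and from 0 to 5 with 1 library left out. The lower genes, 4 as reported, ran from 2 to 5 with 1 library left out, the higher DEGs, 1 as reported, from 0 to 3, and the lower DEGs, 3 as reported, from 2 to 4. DESeq2 called 11 of the 65 genes (16.9%), adding Acsbg1 and Fads1, and 15.7% of all genes. Calls over all genes moved too, to 4.27% without the filter (8.11% of the enzymes), 11.7% with the form block (10.8%) and 3.52% to 11.5% with 1 library left out. The median log2FC of the synthesis side, 0.058 as reported, was 0.149 without a filter on low counts, 0.143 with at least 10 counts in every library, and 0.0608 to 0.171 with 1 library left out, while that of the oxidation side, 0.0649 as reported, ran from 0.0163 to 0.0975. The cause of these changes was not tested. No scaling moved the median of all genes by over 0.1.

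Of the 25 genes recomputed singly, those named by the rule, the sign of log2FC turned for 3 near 0. Cpt1a stood at 0.00939 without a filter on low counts, at 0.00254 with at least 10 counts in every library, and from -0.0774 to 0.0975 with 1 library left out, above 0 without CD36+ NK replicate 1 (0.0975) and without CD36- NK replicate 2 (0.0472). H2-Ke6 ran from -0.053 to 0.0704, at -0.0155 and -0.014 without CD36+ NK replicate 2 or 3 and -0.053 without CD36- NK replicate 2. Acot2 ran from -0.00747, without CD36+ NK replicate 3, to 0.31.

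The replicate block called 4 of the 65 genes, the 4 DEGs (adjusted p = 0.0822 for Aldh2, 0.0615 for Scd1, 0.0512 for Fasn, 0.0906 for Scp2 and 0.0716 for Hsd17b12), and 907 of all genes (6.14%) against 1552. Same-numbered libraries deviated from their group means with correlations of 0.310, 0.0515 and -0.0837 across genes, and only the libraries of replicate 1 correlated best with their own number, so the titles' numbers were not taken as pairs. A block by library name, which pairs CD36+ NK replicates 2 and 3 with CD36- NK replicates 3 and 2, called 10 of the 65 (15.4%, and 13.5% of all genes), without Hsd17b12 and with Hsd17b4 and Fads1. The deviations in those pairs correlated at 0.310, 0.121 and 0.254, although only 1 of the 3 pairs shares a number in the library names. The difference of oxidation and synthesis comes from library levels and was not recomputed for DESeq2 or the blocks. With 3 libraries a group, a gene short of the threshold is not shown to be equal.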
